A study of Mus musculus with 6 samples.

Results

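Among immune cells sorted from mouse mammary tumours, 968 of 26843 kept cell barcodes carried transcripts of a C1q-rich macrophage and of a T cell together. A barcode is the sequence tag that marks the contents of 1 droplet, and a unique molecular identifier (UMI) counts 1 captured transcript. The 968 were chosen by their own counts, with at least 10 UMIs summed over C1qa, C1qb and C1qc and at least 3 UMIs summed over Cd3e, Cd3d and Cd3g, and no doublet was removed. They are called dual barcodes here. The comparators were 3011 C1q-only barcodes, which passed only the C1q gate, and 9586 T-only barcodes, which passed only the Cd3 gate. The levels of these 6 genes are the rule and are given as a description. A gate on counts also favours deep barcodes, so the depth of dual barcodes is a description too.

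The cells were live, CD45-positive cells, CD45 being a surface protein of blood-derived cells, and each of the 5 libraries used was the only one with its treatment label: MRX, CTX, Combined, ctxd18t or combod18t. The series title concerns triple negative breast cancer and pairs cyclophosphamide, an alkylating drug, with inhibition of MERTK, a receptor through which macrophages take up dying cells. The labels do not spell out the treatments; the protocol calls Combined a combination, has day 7 mice treated 3 hours before harvest, and the d18 labels are read as day 18. Strain, tumour model, age and number of pooled animals are not given in the sources used here, and the library labelled VC was not analysed here. With 1 library per label, no difference between libraries has a replicate check and no p-value was computed. Where 5 values are given without library names, they follow the order MRX, CTX, Combined, ctxd18t, combod18t.

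C1q is the recognition part of the classical complement pathway; its 3 chains are the products of C1qa, C1qb and C1qc, and in tumours they are made mainly by macrophages. The CD3 chains carry the signal of the T cell receptor and mark T cells. Droplet data can hold both kinds of transcript in 1 barcode when cells share a droplet or stay attached after digestion, and macrophages also take up dying cells. Counts alone do not tell these sources apart, and none of them was tested here.

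The libraries held 39820290 to 100733879 UMIs and 4011 to 8898 kept barcodes each. In all, 55 barcode sequences occurred in a pair of libraries, 34 in CTX and combod18t and 21 in Combined and ctxd18t, and none in another pair. The protocol assigns 1 chip barcode set each to Combined, CTX, MRX and VC and gives none for the d18 libraries, whose barcode sets were those of CTX (combod18t) and of Combined (ctxd18t). Of the dual barcodes, 6 had a sequence that also occurred in another library. The dual sums carried all 10 macrophage markers and all 10 T markers of the lists used, in every one of the 5 libraries. The summed macrophage markers stood at 12174 to 15129 counts per 1000000 UMIs (CPM) in dual barcodes, 16339 to 25036 CPM in C1q-only and 523 to 2405 CPM in T-only barcodes. The summed T markers stood at 1594 to 2233 CPM in dual, 35.4 to 85.6 CPM in C1q-only and 4416 to 5386 CPM in T-only barcodes. Both lists share their gate genes with the rule.

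Dual barcodes were present in every one of the 5 libraries, from 79 in MRX to 443 in CTX. MRX held 79 dual barcodes of 5440 kept (1.45%, 95% Clopper-Pearson interval 1.15 to 1.81%), CTX 443 of 8898 (4.98%, 4.54 to 5.45%) and Combined 121 of 4476 (2.70%, 2.25 to 3.22%). In ctxd18t there were 178 of 4011 (4.44%, 3.82 to 5.12%), and in combod18t 147 of 4018 (3.66%, 3.10 to 4.29%). MRX was lowest and its interval did not meet that of any other library; the intervals of CTX and ctxd18t overlapped, as did those of ctxd18t and combod18t and those of combod18t and Combined. Counting error is all that these intervals hold; animals were not measured apart.

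Counted within each parent gate, the order of the libraries changed. Of barcodes in the C1q gate, the dual share was lowest in MRX at 12.4%, then CTX at 21.0%, Combined at 26.9%, ctxd18t at 35.3% and combod18t at 52.5% (46.5 to 58.5%). In combod18t the C1q gate held 280 barcodes, so 147 dual barcodes stood beside 133 C1q-only barcodes. Of barcodes in the Cd3 gate, it was 3.80, 17.3, 8.64, 10.8 and 5.12% in the same order. The gates themselves differed in size: the C1q gate took 11.7, 23.7, 10.1, 12.6 and 6.97% of kept barcodes in that order of libraries, and the Cd3 gate 38.2, 28.8, 31.3, 40.9 and 71.4%. CTX, with the largest C1q gate, had the highest dual share of its Cd3 gate, and combod18t, with the largest Cd3 gate, the highest dual share of its C1q gate.

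**Figure D1:**
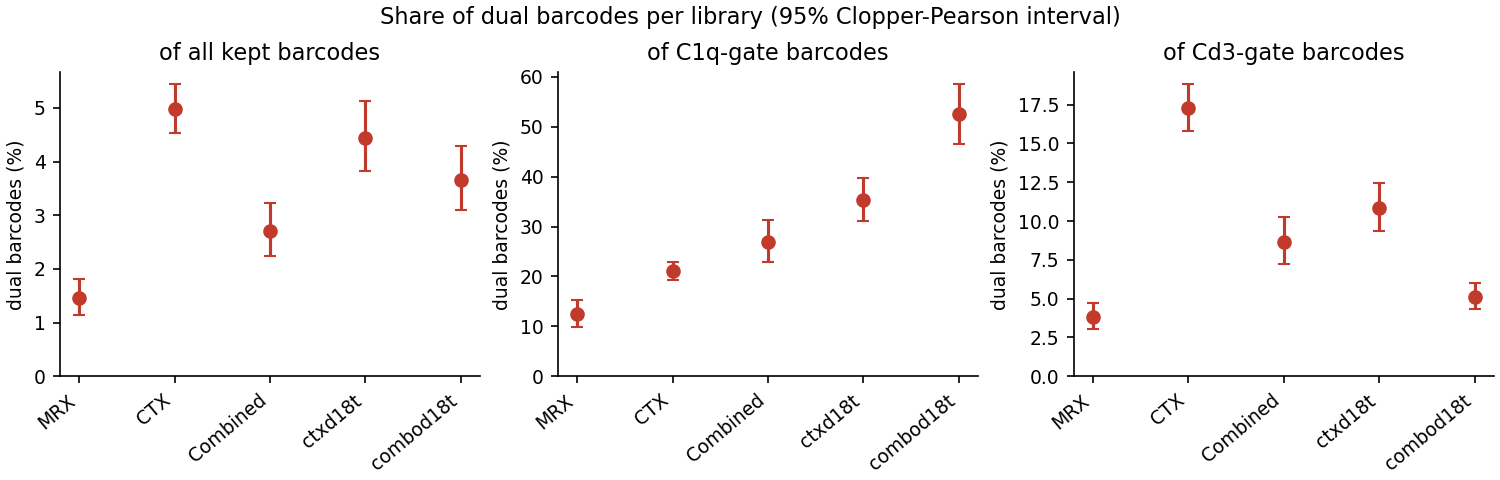
Dual barcodes in each of the 5 libraries as a percentage of all kept barcodes (left), of barcodes in the C1q gate (middle) and of barcodes in the Cd3 gate (right); points are the shares and bars their 95% Clopper-Pearson intervals. MRX is lowest in all panels, and combod18t goes from 52.5% of the C1q gate to 5.12% of the Cd3 gate.

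B cells should lack both gate products, so barcodes with at least 3 UMIs of Cd79a, Cd79b and Ms4a1 served as the background. Of these B-gate barcodes, 2.36, 5.02, 2.05, 2.69 and 5.45% passed the C1q gate, in the same order of libraries. The Cd3 gate was passed by 3.83, 4.24, 6.15, 8.85 and 18.9% of them. The shares of C1q-gate barcodes that passed the Cd3 gate, 12.4 to 52.5%, were above the B-gate shares in each library. The median depth was 4271 to 9391.5 UMIs in B-gate barcodes and 8458 to 17742.5 UMIs in the C1q gate, so the gates were not compared at equal depth.

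The Cd3 gate did not fall in a gap of the counts. Over the 5 libraries, 2827 C1q-gate barcodes had no Cd3 UMI, 132 had 1 and 52 had 2, just outside the gate; 49 had 3 and 53 had 4, just inside it. The counts thus ran level across the gate, and 812 of the 968 dual barcodes had at least 6 Cd3 UMIs. The median Cd3 sum of dual barcodes was 9, 11, 12, 16 and 18 UMIs in the same order of libraries, against 11, 13, 12, 17 and 11 in T-only barcodes. On the other axis, 19 Cd3-gate barcodes had 9 C1q UMIs and 20 had 10, so this gate lay in a sparse tail. The median C1q sum of dual barcodes was 37, 84, 53, 113 and 105 UMIs, against 60, 64, 58, 89.5 and 85 in C1q-only barcodes. MRX was the one library in which the dual median of both sums was below that of the parent, and in combod18t both were above it.

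**Figure D2:**
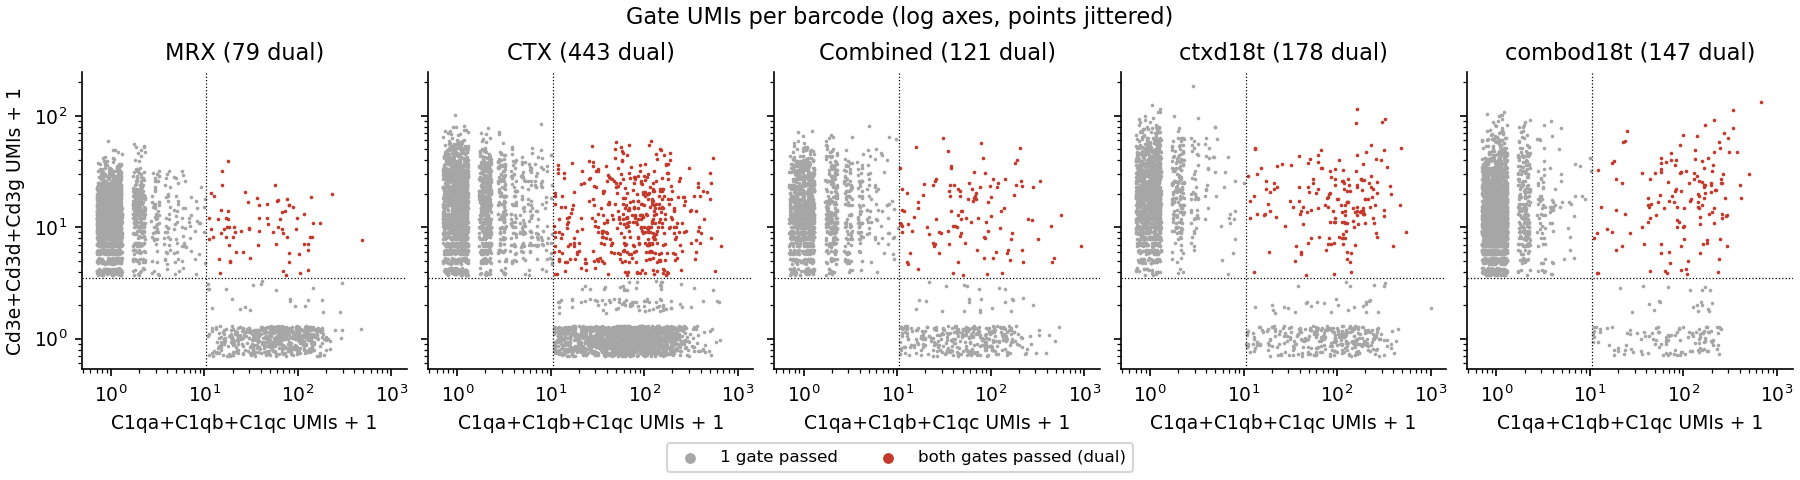
UMIs of C1qa, C1qb and C1qc (x axis, plus 1, log scale) against UMIs of Cd3e, Cd3d and Cd3g (y axis, plus 1, log scale) for each barcode that passed at least 1 gate, in a panel per library, with jitter; dotted lines mark the gates. Dual barcodes (red, 79 to 443 per library) are those above both gate lines, which fix where they lie; 2827 C1q-gate barcodes had no Cd3 UMI.

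The number of dual barcodes was next set beside the number that the product of the 2 gate shares gives in the same library. This ratio is a description of how often gates meet, not a test of chance, since cells of different kinds and depths do not enter gates independently. It was 0.33 in MRX (79 against 242.8, 95% Poisson interval 0.26 to 0.41), 0.73 in CTX (0.66 to 0.80) and 0.86 in Combined (0.71 to 1.03). The d18 libraries had 0.86 (ctxd18t, 0.74 to 1.00) and 0.73 (combod18t, 0.62 to 0.86). MRX stood below the other 4 libraries, whose intervals overlapped one another.

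The C1q and Cd3 gates met more often, on this scale, than either met the B gate in 4 of the 5 libraries. The ratio of the Cd3 with the B gate was 0.10, 0.15, 0.20, 0.22 and 0.26 in the order MRX, CTX, Combined, ctxd18t and combod18t. That of the C1q with the B gate was 0.20, 0.21, 0.20 and 0.21 in MRX, CTX, Combined and ctxd18t, and 0.78 in combod18t (0.46 to 1.25, from 17 barcodes). In combod18t the C1q gate therefore met the B gate about as often as the Cd3 gate. In MRX the intervals of C1q with Cd3 (0.26 to 0.41) and C1q with B (0.09 to 0.40) overlapped. Some other gates met the C1q gate more often still, and others less often. Its ratio with the neutrophil gate was 0.57, 1.81, 2.15, 1.54 and 1.504, with the plasmacytoid dendritic cell gate 0.45, 1.06, 1.42, 1.15 and 1.88, and with the type 1 conventional dendritic cell gate 0.44, 1.21, 1.76, 1.44 and 2.65. All of these were above the C1q with Cd3 ratio of the same library. With the natural killer gate it was 0.14, 0.40, 0.33, 0.97 and 1.64, and with the epithelial gate 0.31, 0.47, 0.71, 0.62 and 1.13, below C1q with Cd3 in the first 3 and the first 4 libraries. Some of these gates are not exclusive to their lineage, since macrophages can carry Csf3r, a gene of the neutrophil gate.

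Divided by the Cd3 with B ratio of its library, the C1q with Cd3 ratio came to 3.24, 4.96, 4.37, 3.99 and 2.78 in that order. All 5 lay above 1 with their intervals, the lowest bound being 1.79 in MRX. This was not particular to the Cd3 gate: divided in the same way, C1q with the plasmacytoid dendritic cell gate came to 4.48, 7.19, 7.21, 5.33 and 7.10, and C1q with the neutrophil gate to 5.70, 12.3, 10.9, 7.14 and 5.68. With every barcode thinned to 5000 UMIs and shallower ones left out, it came to 1.56 in MRX (0.64 to 4.62) and 1.49 in Combined (0.85 to 2.69), whose intervals then held 1. It stayed above 1 with its interval in CTX (2.02, from 1.04), ctxd18t (3.21, from 2.19) and combod18t (3.75, from 2.31). Thinning left out 1912, 1658, 1100, 688 and 665 barcodes in the usual order of libraries, and 28, 150, 37, 75 and 71 barcodes then passed both gates.

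**Figure D3:**
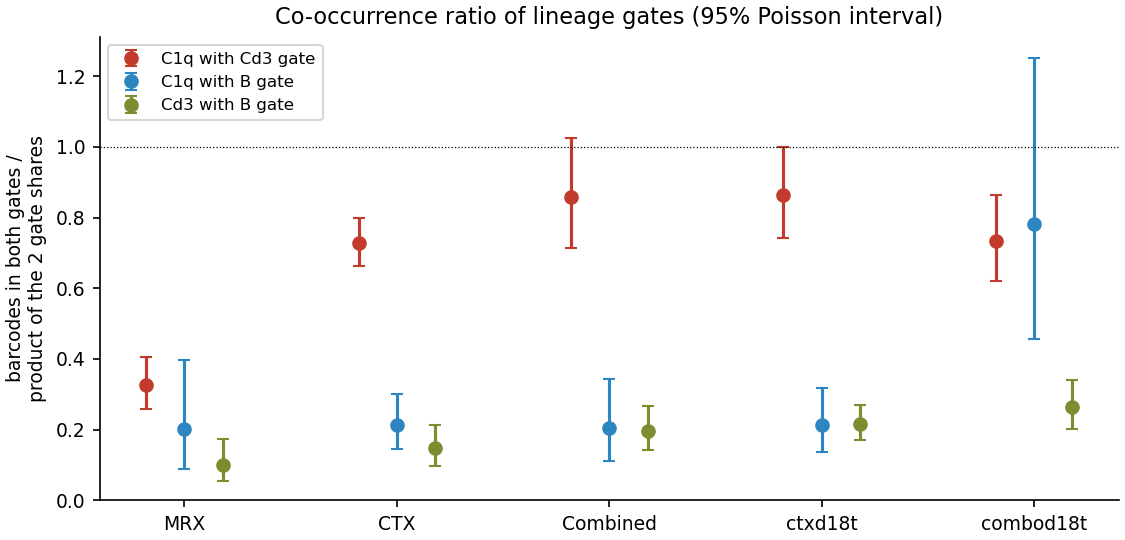
Barcodes in both of 2 lineage gates divided by the number the product of the gate shares gives (y axis), per library (x axis), with 95% Poisson intervals as bars and a dotted line at 1. The C1q with Cd3 points (0.33 to 0.86) stand above the Cd3 with B points (0.10 to 0.26) in all 5 libraries, and the C1q with B point of combod18t (0.78) stands apart from the other 4.

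Dual barcodes were deeper than either parent. Their median was 12235 UMIs in MRX (95% interval of the median 10953 to 13433), 24369 in CTX (22125 to 25908) and 23273 in Combined (20081 to 26407). The d18 libraries had 26607 (ctxd18t, 24255 to 28502) and 25844 (combod18t, 23559 to 28219). C1q-only medians were 8249, 11529, 11971, 13878 and 11591 UMIs, and T-only medians 5088.5, 7411.5, 7676, 8636 and 7243 UMIs. The dual median was thus 0.917 times the sum of both parent medians in MRX and 1.29, 1.18, 1.18 and 1.37 times that sum in the other 4. The mitochondrial share of counts was alike, with medians of 1.5 to 1.8% in dual barcodes and 1.3 to 1.8% in both parents. A barcode with fewer cells of a kind and one with less RNA per cell cannot be told apart in these sums.

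To ask how much of each lineage a barcode held, genes were chosen from 2 sums over the 5 libraries. One sum was of T-only barcodes and the other of C1q-gate barcodes with no Cd3 UMI, a narrower set than the C1q-only comparator. Genes taken had at least 20 CPM in one sum and at most 0.1 times that in the other, without the 6 gate genes. This gave 309 T-restricted and 62 macrophage-restricted genes; the first set also holds genes of other cells in the T-only sums, such as Camp, a granule gene of neutrophils. Dual barcodes held a median of 257, 315, 373, 580 and 876 T-restricted UMIs in MRX, CTX, Combined, ctxd18t and combod18t. T-only barcodes held 283, 334.5, 352, 567 and 533. The dual value was therefore 0.908, 0.942, 1.06, 1.02 and 1.64 times the T-only value, close to 1 in 4 libraries and higher in combod18t. C1q-only barcodes held medians of 9 to 24 such UMIs.

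For macrophage-restricted genes the dual medians were 157, 235, 171, 327.5 and 302 UMIs, and the C1q-only medians 187, 165.5, 133, 274.5 and 242. The dual value was 0.840 times the C1q-only value in MRX and 1.42, 1.29, 1.19 and 1.25 times it in the others. Of the dual barcodes, 43.0, 63.4, 49.6, 59.6 and 72.8% reached both the lower quartile of T-restricted UMIs in T-only barcodes and that of macrophage-restricted UMIs in C1q-only barcodes. This share was smallest in MRX and largest in combod18t. Within a library the balance varied from barcode to barcode: the T-restricted share of all restricted UMIs had a median of 58.8 to 73.5% across the libraries, and in CTX ran from 34.0% at the 10th percentile to 82.0% at the 90th.

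**Figure D4:**
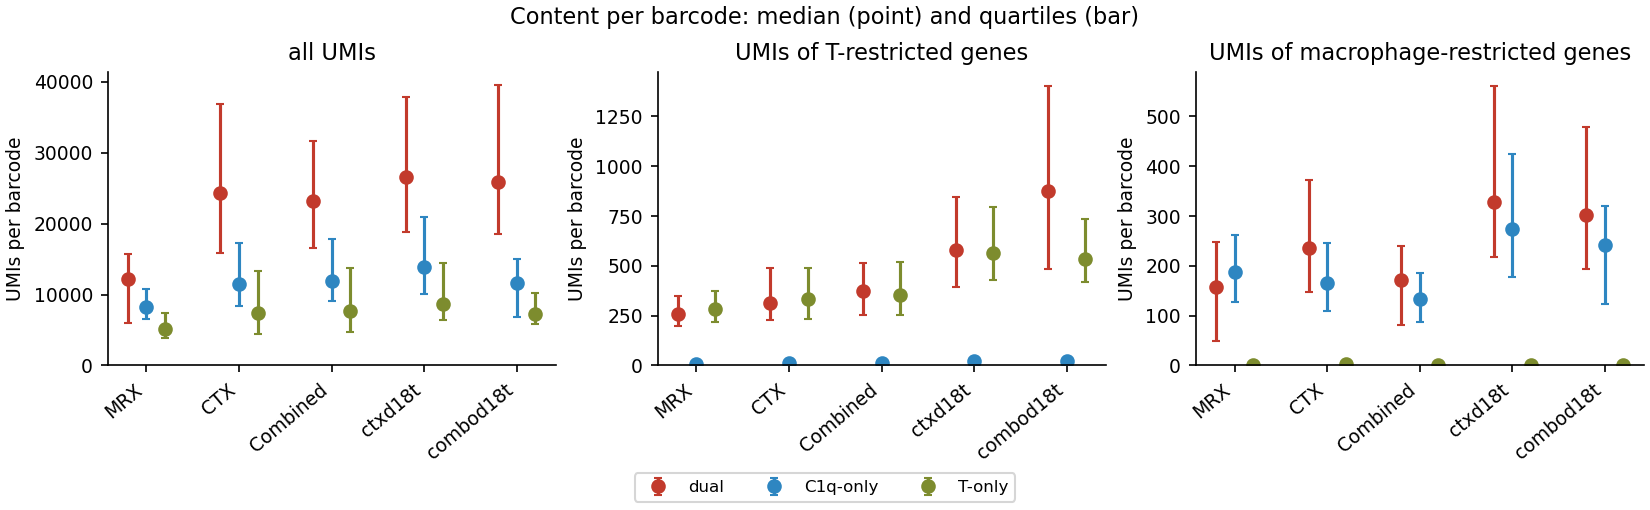
Median (points) and quartiles (bars) of all UMIs, UMIs of 309 T-restricted genes and UMIs of 62 macrophage-restricted genes per barcode, for dual, C1q-only and T-only barcodes of each library. Dual barcodes exceed both parents in all UMIs in every library; their medians of T-restricted UMIs are 0.908 to 1.64 times those of T-only barcodes, and of macrophage-restricted UMIs 0.840 to 1.42 times those of C1q-only barcodes.

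The T cells whose transcripts were carried were of several kinds, CD8 and CD4 among them. Cd8b1, a chain of the CD8 co-receptor of cytotoxic T cells, made up 66.9% of Cd4 plus Cd8b1 UMIs in dual barcodes of MRX (60.6 to 72.9%), 66.6% in CTX (64.2 to 69.0%) and 58.4% in Combined (53.8 to 62.9%). For ctxd18t it was 67.0% (64.0 to 70.0%) and for combod18t 53.9% (50.4 to 57.4%). In T-only barcodes of the same libraries it made up 74.1, 63.2, 54.8, 61.9 and 44.0%. The dual share was lower than the T-only share in MRX and higher in the other 4, and the intervals did not overlap in MRX, ctxd18t and combod18t. In MRX the dual bound of 72.9% lay just under that of T-only barcodes, and 5 of the 79 dual barcodes held 38 of the 79 Cd4 UMIs, so this direction rested on few barcodes. In ctxd18t the dual bound of 64.0% lay near the T-only bound of 63.0%. There the highest 5 dual barcodes held 117 of 663 Cd8b1 and 78 of 326 Cd4 UMIs, and in combod18t 102 of 442 and 68 of 378. The intervals treat UMIs of 1 barcode as independent, which they are not. Without barcodes of a further lineage gate, combod18t gave 45.2% (40.1 to 50.4%) in dual against 39.1% (38.1 to 40.2%) in T-only barcodes, and these intervals overlapped. Thinned to 5000 UMIs, the direction turned in Combined, to 48.8% in dual against 56.1% in T-only barcodes. C1q-only barcodes also held Cd4, at 8.84, 6.42, 11.1, 9.34 and 13.5 CPM against 75.9, 42.0, 63.8, 59.6 and 82.9 CPM in dual barcodes. They held Cd8b1 as well, at 15.9, 19.6, 17.02, 4.85 and 7.34 CPM against 154, 83.9, 89.6, 121 and 96.9 CPM. The dual shares above include this background.

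By the UMIs they held, 46.8, 40.6, 32.2, 42.7 and 23.1% of dual barcodes had a Cd8b1 UMI with no Cd4 or Foxp3 UMI. Foxp3 encodes the master regulator of regulatory T cells, and 6.33, 9.48, 14.05, 10.1 and 5.44% of dual barcodes had it without Cd8b1. Cd4 without the other pair of genes was in 17.7, 19.0, 20.7, 17.4 and 25.2%. B-gate barcodes that passed neither gate gave 0.62 to 1.25% for the first class and 0 to 0.40% for the second, at medians of 4103 to 8220 UMIs against 12235 to 26607 UMIs in dual barcodes. These shares rise with depth, so no comparison with the shallower T-only barcodes is drawn from them.

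CD4 and CD8 mark separate lineages of mature T cells. Cd4 and Cd8b1 were found together in 8.86, 11.96, 19.0, 20.8 and 34.7% of dual barcodes, in the same order, against 3.05, 5.94, 7.11, 9.16 and 8.96% of T-only barcodes. Depth differs between these sets, so the comparison was repeated among barcodes within the dual quartiles of T-restricted UMIs. There the shares were 2.56% against 1.83% in MRX (1 dual barcode), 9.502% (5.98 to 14.2%) against 4.24% in CTX and 9.68% (3.63 to 19.9%) against 4.17% in Combined. In ctxd18t they were 12.5% (6.41 to 21.3%) against 4.88% (3.54 to 6.54%), and in combod18t 29.7% (19.7 to 41.5%) against 8.41% (7.04 to 9.94%). The intervals were separate in CTX, where T-only gave 3.13 to 5.60%, and in combod18t, and they overlapped in MRX, Combined and, barely, ctxd18t. With at least 2 UMIs of each gene required, CTX gave 2.71% (1.00 to 5.82%) against 1.81% (1.11 to 2.77%), which overlap. The intervals were then separate in combod18t alone, at 14.9% (from 7.66%) against 3.93% (3.00 to 5.05%). In combod18t the matching was incomplete, with medians of 868 T-restricted UMIs in dual and 654 in T-only barcodes. The macrophage part of a dual barcode can add either gene, which this matching does not balance: 3.95 to 9.77% of C1q-only barcodes had a Cd4 UMI and 2.45 to 4.86% a Cd8b1 UMI.

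The state of the T cells was read from T-restricted genes scaled to 10000 T-restricted UMIs, which takes out dilution by macrophage RNA. With 1 library per label there is no test, so a gene is called only where its level differed at least 2-fold; for other genes the sign and size of the ratio are given, with no call. In no case was a gene called higher or lower in at least 4 of the 5 libraries (0 of 305 each way, 0% both ways). Within single libraries the called shares were 1.31% higher and 3.61% lower in MRX, 0.325% and 0.649% in CTX, 0.984% and 3.28% in Combined, 0% and 1.29% in ctxd18t, and 2.27% and 0.971% in combod18t. The median log2 ratio over all T-restricted genes lay between -0.05 and 0.05 in the 5 libraries. The scaling to T-restricted UMIs itself centres these ratios, so nothing is read from that median.

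All 8 lineage genes were measured, and their median log2 ratio was -0.14, -0.20, 0.00, -0.16 and -0.11 in the order MRX, CTX, Combined, ctxd18t and combod18t. Trac, which encodes the constant region of the T cell receptor alpha chain, stood at 153, 162, 161, 116 and 87.7 per 10000 in dual barcodes and 171, 191, 175, 154 and 99.9 in T-only barcodes. Its log2 ratios were -0.12 to -0.40, negative in all 5 libraries and called in none. The beta chain constant genes had ratios of -0.03 to -0.15 for Trbc2 and -0.02 to -0.41 for Trbc1, all negative as well.

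Cd8b1 had ratios above 0 in all 5 and was called in none, at 69.4, 59.1, 53.5, 52.9 and 29.0 per 10000 in dual against 65.9, 57.1, 39.7, 45.9 and 23.5 in T-only barcodes. Its log2 ratios were 0.08 (-0.16 to 0.30), 0.05 (-0.05 to 0.15), 0.43 (0.25 to 0.61), 0.20 (0.09 to 0.32) and 0.30 (0.16 to 0.45), so the interval left 0 out in the last 3. Against the weighted mixture of both parents described below, which counts the Cd8b1 of C1q-only barcodes, it was 0.12, 0.02, 0.45, 0.28 and 0.39. Cd8a, the other CD8 chain, went both ways, from -0.72 in MRX to 0.40 in combod18t. Cd4 did too, from 0.56 in MRX to -0.26 in combod18t, and Foxp3 lay between -0.57 and 0.05. Trdc, the constant gene of the delta chain of gamma-delta T cells, had log2 ratios of -0.20, -0.37, -0.87, -0.11 and -1.66 and was called in combod18t alone. The last rested on 21 UMIs in 9 of 147 dual barcodes against 973 UMIs in T-only barcodes. With barcodes of a further lineage gate left out, the median of the 5 ratios moved from -0.37 to 0.02, so the direction for Trdc was not kept.

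Of the resting and homing list, 6 of 10 genes were T-restricted and their median was 0.12, 0.08, -0.05, -0.15 and -0.43. Satb1, a chromatin organiser of T cells, had log2 ratios of 0.29, 0.35 and 0.34 in MRX, CTX and Combined and of -0.10 and -0.42 in ctxd18t and combod18t. Tcf7, which encodes the transcription factor TCF1 of naive and memory T cells, lay near 0 except in combod18t (-0.57). Dapl1 had ratios of -0.07 to -0.56, at 3.08 to 8.12 per 10000.

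Of the cytotoxic and effector list, 8 of 12 genes were T-restricted, with medians of -0.09, -0.14, -0.05, -0.33 and 0.57. Gzmb, the granule protease granzyme B of killer cells, stood at 57.7, 107, 71.8, 30.6 and 9.12 per 10000 in dual barcodes and 83.1, 120, 144, 59.8 and 13.7 in T-only barcodes. Its log2 ratios were negative in every one of the 5 libraries and called in none, at -0.52 (-0.79 to -0.28), -0.18 (-0.25 to -0.10), -0.9972 (-1.16 to -0.85), -0.96 (-1.12 to -0.82) and -0.56 (-0.84 to -0.34). A gate on Ncr1, Klrb1c and Klre1, genes of natural killer cells, was passed by 4.60 to 12.6% of T-only and 5.06 to 17.7% of dual barcodes. With the barcodes of this and 5 other lineage gates left out, the median Gzmb ratio went from -0.56 to -0.86. Gzmk, granzyme K, lay between -0.50 and 0.03.

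Ifng, the gene of interferon gamma, went both ways between libraries. It stood at 3.90, 35.0, 145, 8.13 and 5.97 per 10000 in dual barcodes and 9.84, 29.7, 49.1, 11.3 and 3.98 in T-only barcodes, for log2 ratios of -1.23, 0.23, 1.55, -0.45 and 0.53. The high value of Combined rested on few barcodes: 5 of its 121 dual barcodes held 684 of the 753 Ifng UMIs. In MRX the dual barcodes had 9 Ifng UMIs in all. The counting intervals do not include this unevenness between barcodes.

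Checkpoint genes, whose products restrain activated T cells, had 6 of 10 members T-restricted and medians of -0.11, -0.34, -0.21, -0.06 and 0.25. Ctla4, an inhibitory receptor, stood at 59.9, 94.4, 113, 116 and 66.4 per 10000 in dual against 101, 152, 150, 121 and 63.3 in T-only barcodes. Its log2 ratios were -0.75, -0.68 and -0.41 in MRX, CTX and Combined and within 0.07 of 0 in the d18 libraries. Rgs16 went from -1.10 in MRX to 0.24 in combod18t, and Cd200 was highest in Combined and combod18t (0.76 and 0.74).

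The regulatory list, which also holds Ctla4, had 8 of 10 members T-restricted and medians of -0.24, -0.41, -0.13, -0.01 and 0.33. Il2ra, the interleukin 2 receptor alpha chain, was at -1.17 in MRX, past 2-fold, at -0.69 in CTX and between -0.25 and 0.08 in the other 3 libraries. Ikzf4 lay between -0.34 and 0.40. In the gamma-delta and type 17 list only Trdc and Trgc2 of 9 genes were T-restricted, and Trgc2 ran from -0.79 in MRX to 0.60 in combod18t.

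Among genes of CD4 help, 3 of 8 were T-restricted, with medians of 0.08, -0.06, 0.09, -0.31 and 0.03. Tnfsf8, the CD30 ligand, had ratios above 0 in all 5 libraries and was called in none, at 60.3, 48.5, 76.9, 48.6 and 53.6 per 10000 in dual against 35.4, 42.1, 57.7, 35.7 and 27.6 in T-only barcodes. Its log2 ratios were 0.76 (0.51 to 1.02), 0.20 (0.09 to 0.31), 0.41 (0.26 to 0.57), 0.44 (0.32 to 0.57) and 0.95 (0.85 to 1.07). In MRX 5 of the 79 dual barcodes held 122 of its 139 UMIs, so the MRX value rested on few barcodes. The highest 5 held 206 of 818 in CTX, 162 of 400 in Combined, 253 of 609 in ctxd18t and 258 of 817 in combod18t. Whether the shared sign holds without these barcodes was not tested. Icos, an inducible costimulator, was at -0.28 to -0.40 in MRX, CTX, Combined and ctxd18t and at 0.03 in combod18t. Cd40lg, the CD40 ligand, lay between -0.06 and 0.09 in 4 libraries and at -0.58 in ctxd18t.

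All 12 genes of the T cell receptor complex and its signalling were T-restricted, and their median stayed between -0.14 and -0.02 in the 5 libraries. Cd28, the main costimulatory receptor, had ratios of -0.20 to -0.54 and Thy1 of -0.02 to -0.30. Cd2, an adhesion receptor of T cells, lay between -0.33 and 0.04. None of these genes reached 2-fold in any of the 5 libraries.

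**Figure D5:**
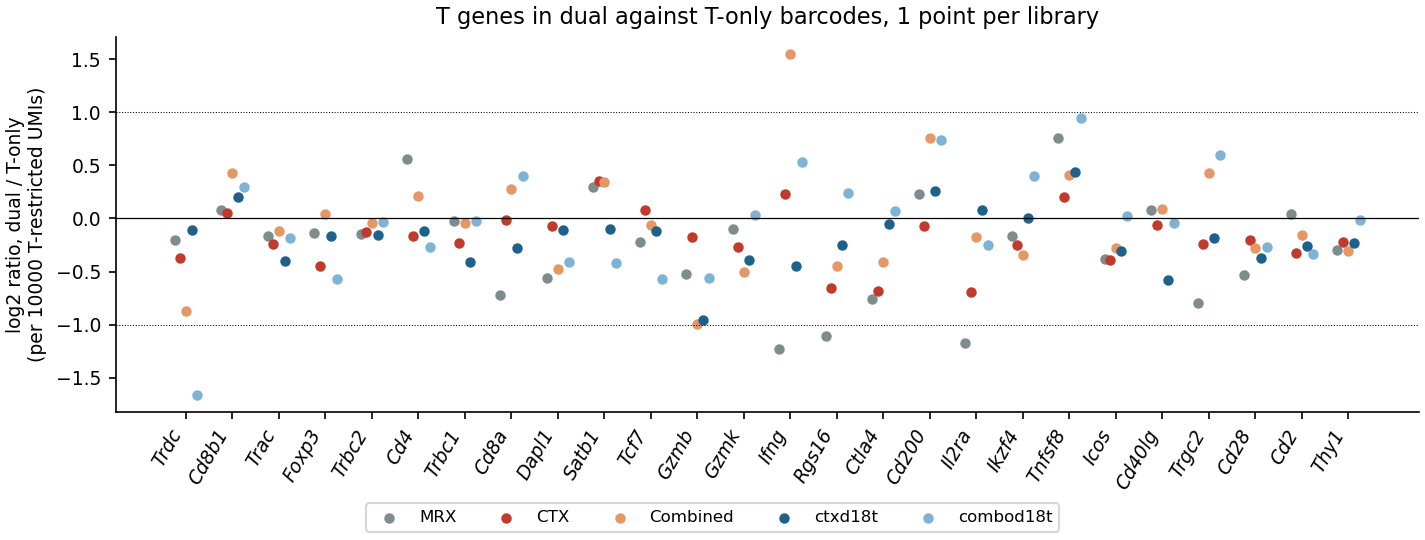
Log2 ratio of dual over T-only barcodes for named T genes (x axis), per 10000 T-restricted UMIs with a pseudocount of 0.5, with 1 point per library and dotted lines at 2-fold. Gzmb points lie at or below -0.18 in every library, Tnfsf8 points at or above 0.20, and Ifng points run from -1.23 to 1.55.

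The macrophages were read in the same way, per 10000 macrophage-restricted UMIs against C1q-only barcodes. Of 61 genes measured in at least 4 libraries, 0 were higher and 0 lower by 2-fold in at least 4 (0% both ways). In single libraries the called shares were 4.92% higher and 8.2% lower in MRX, 0% and 0% in CTX, 1.64% and 1.64% in Combined, 0% and 6.45% in ctxd18t, and 0% and 1.61% in combod18t. The 1 gene called in combod18t was Hbb-bs, a haemoglobin gene of red blood cells, with 6 UMIs in dual and 1238 in C1q-only barcodes. It entered the set through this library, at 757 CPM in C1q-only barcodes against 0.38 to 2.43 CPM in the other 4, so it is not read as a macrophage gene. Few genes passed as macrophage-restricted; the T-only sums held macrophage markers at 523 to 2405 CPM, as given above.

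Of the macrophage identity list 3 of 12 genes were macrophage-restricted, of the lipid-associated list 3 of 11 and of the lysosome list 1 of 12. These genes differed little. Apoe, an apolipoprotein abundant in tumour macrophages, stood at 4394, 2413, 2927, 2775 and 4044 per 10000 in dual and 4594, 2330, 2656, 2592 and 3519 in C1q-only barcodes, for log2 ratios of -0.06 to 0.20. Adgre1, which encodes F4/80, lay between -0.14 and 0.04, Fcgr4, an Fc receptor, between 0.02 and 0.14, and Ms4a7 between -0.24 and 0.16. Trem2, a lipid-sensing receptor, lay between -0.10 and 0.21, and Lgmn, the lysosomal protease legumain, between -0.14 and 0.08. Cd63, of the lipid-associated list with Apoe and Trem2, lay between -0.11 and 0.28.

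Genes of engulfment were few in the restricted set. Mertk, the receptor named in the series title, which binds dying cells through bridging proteins, stood at 22.0, 21.0, 27.9, 16.9 and 20.6 per 10000 in dual against 22.3, 17.2, 21.3, 17.6 and 27.9 in C1q-only barcodes. Its log2 ratios were -0.01 (-0.58 to 0.51), 0.28 (0.08 to 0.49), 0.38 (-0.06 to 0.83), -0.06 (-0.39 to 0.27) and -0.43 (-0.85 to -0.03), so its sign was not shared. Stab1, a scavenger receptor, lay between -0.57 and 0.27. The other 13 of 15 genes of that list were not macrophage-restricted.

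Of the 12 genes of resident-type macrophages, 5 were macrophage-restricted, and their median log2 ratio was 1.40, 0.45, 0.51, -1.21 and 0.11. Ccl8, a chemokine, stood at 398, 827, 566, 342 and 179 per 10000 in dual and 108, 645, 397, 783 and 166 in C1q-only barcodes, so dual was higher in MRX (log2 ratio 1.88) and lower in ctxd18t (-1.19). Folr2, a folate receptor of resident macrophages, had 1.40, 0.45, 1.66, -1.28 and -0.65, past 2-fold in MRX, Combined and ctxd18t. Cbr2 had 1.45, 0.54, 0.61, -1.44 and -0.12. The other 2 members had ratios below 0 in MRX: Pf4, a platelet factor and chemokine, had -0.87, 0.61, 0.12, -1.21 and 0.16, and Mrc1, the mannose receptor, -0.53, 0.10, -0.11, 0.09 and 0.32. In MRX, 5 of the 79 dual barcodes held 505 of 597 Ccl8 UMIs, 51 of 57 Folr2 UMIs and 53 of 70 Cbr2 UMIs. In Combined, 5 of 121 held 33 of 40 Folr2 UMIs, 21 of them in 1 barcode, so these levels came from a small part of the dual barcodes.

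Of 13 interferon-induced genes and chemokines that act on T cells and monocytes, 3 were macrophage-restricted. Cxcl16, the ligand of CXCR6 on T cells, lay between -0.09 and 0.27, Ccl12 between -0.43 and 0.61, and Ccl7 was at -1.64 in Combined and between -0.61 and 0.24 in the others. The lists of monocyte-derived genes and of antigen presentation had no macrophage-restricted member and were read against a mixture of the parents instead.

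A mixture of both parents was built for each library by weighting the T-only and C1q-only sums so that they gave the restricted UMI shares of the dual sums. The comparison was added after seeing the data. The weights for T-only and C1q-only sums were 43.0 and 61.7% in MRX, 33.3 and 73.7% in CTX, 36.4 and 71.6% in Combined, 37.9 and 62.0% in ctxd18t, and 45.3 and 58.0% in combod18t. They summed to 99.8 to 108.0%, which the method does not force. The mixture was divided by this sum before the comparison, so it no longer gave those restricted shares exactly. Of the genes measured in each library, 6407 to 11359, 98.8 to 99.7% lay within 2-fold of the mixture in dual barcodes. The weights came from the dual sums themselves, and the share within 2-fold of either parent alone was not computed. So nothing is read from the size of this share. Of 9020 genes measured in at least 4 libraries, 0 were higher than the mixture by 2-fold in at least 4 (0%) and 1 was lower (0.0111%).

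Antigen presentation and costimulation genes had medians of -0.09 to 0.14 over the libraries (9 of 10 measured), monocyte-derived genes -0.07 to 0.13 (10 of 10) and lysosome genes -0.14 to 0.07 (11 of 12). Efferocytosis receptors and their bridging ligands had medians of -0.07 to 0.13 (11 of 15), and 0 of them were 2-fold away in at least 4 libraries. Within that list Gas6, a bridging ligand of MERTK, was 1.21, 0.65, 1.08, -1.47 and 0.30 from the mixture, above it in 4 libraries and below it in ctxd18t. Axl, a receptor of the MERTK family, lay between -0.14 and 0.13. Cxcl9, a ligand of CXCR3 named in the series title, stood at 156, 788, 948, 235 and 88.3 CPM in dual barcodes and was -0.17, 0.11, 0.44, 0.00 and -0.33 from the mixture.

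Other lists lay farther from it in single libraries. In combod18t the cytotoxic list had a median of 0.46, the checkpoint list 0.39, the regulatory list 0.30 and the resting and homing list -0.34. The resident-type macrophage list was at -0.49 in ctxd18t and between 0.08 and 0.24 in the other 4 libraries. Of the 9 genes of the gamma-delta and type 17 list 2 were measured, with medians of -0.42 in MRX and -0.51 in combod18t.

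Cell cycle genes had medians of -0.35, -0.20, -0.45, -0.50 and 0.28 against the mixture (9 of 10 measured), below it in 4 libraries and above it in combod18t. Of effector genes outside the restricted set, Prf1, the pore protein perforin, was -0.97, -0.18, -0.98, -0.68 and 0.37 from the mixture, and Gzma, granzyme A, 0.37, -0.67, -0.91, -0.14 and -0.69. Ccl5, a chemokine of effector T cells, lay between -0.05 and 0.59.

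A gene made in neither parent but found in dual barcodes would stand above both. Of 9020 genes, 0 were at least 1.5 times the higher parent in at least 4 libraries (0%), and 1 was at most 1/1.5 of the lower parent (0.0111%). That gene, D130009I18Rik, stood at 19.2, 10.3, 8.05, 14.5 and 12.3 CPM in dual barcodes against 29.0, 22.4, 21.6, 31.9 and 30.6 CPM in C1q-only and 24.2, 23.1, 24.3, 29.7 and 27.2 CPM in T-only barcodes. The dual level was 0.37 to 0.49 times the lower parent in 4 libraries and 0.79 times it in MRX. It was also the gene below the mixture. With stricter gates, or without barcodes of a further lineage gate, 0 genes were below both parents.

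Genes stood above both parents in at most 3 libraries. S100a8, a neutrophil gene, was above both in MRX, CTX and Combined, at 120, 105 and 51.5 CPM against at most 45.9, 51.5 and 19.3 CPM in a parent. Of its 1242 UMIs in CTX, 1066 came from 5 dual barcodes, as did 124 of 125 in MRX and 135 of 160 in Combined. The 5 neutrophil markers, S100a8 among them, together stood at 360, 262 and 185 CPM in these dual sums, against at most 223, 139 and 99.8 CPM in a parent. This sum thus includes the S100a8 counts, and the part of neutrophils in them was not tested. Il12b, a subunit of interleukin 12 and interleukin 23, was above both in Combined, ctxd18t and combod18t, at 18.4, 36.2 and 27.6 CPM against at most 3.57, 5.36 and 18.3 CPM. Of its dual UMIs, 55 of 57 in Combined and 171 of 198 in ctxd18t came from 5 barcodes each, and all 126 in combod18t from 4. Both genes were named after their values were seen.

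Dual barcodes, which are deeper than either parent, passed a gate of some further lineage more often. At least 1 of 6 gates for B cells, natural killer cells, neutrophils, plasmacytoid dendritic cells, type 1 conventional dendritic cells and epithelial cells was passed by 15.2, 31.6, 41.3, 45.5 and 40.8% of dual barcodes, in the order used above. The C1q-only shares were 10.1, 16.4, 20.7, 27.6 and 20.3%, and the T-only shares 8.16, 12.2, 21.8, 23.2 and 10.6%. In MRX the dual interval, from 8.10%, held the shares of both parents. Single gates did not all go this way: the natural killer gate was passed by 11.6% of dual and 12.2% of T-only barcodes in Combined, and the epithelial gate by 0 of 79 dual barcodes in MRX (interval up to 4.56%) against 0.36% of C1q-only and 0.60% of T-only barcodes. Several of these gates are not exclusive to their lineage, since T cells can carry natural killer genes and macrophages Csf3r, and deep barcodes pass them more easily. The B gate was passed by 1.27, 2.03, 6.61, 6.74 and 10.2% of dual barcodes. It was passed by 1.26 to 3.68% of C1q-only and 0.60 to 4.58% of T-only barcodes over the libraries. By level per UMI, the 4 B markers summed to 13.5, 8.42, 35.8, 55.3 and 82.9 CPM in dual barcodes, against 21.3, 12.7, 23.5, 57.5 and 36.1 CPM in C1q-only and 18.2, 14.6, 35.5, 124 and 42.6 CPM in T-only barcodes. The dual sum was thus below both parents in MRX, CTX and ctxd18t, level with T-only in Combined, and above both in combod18t.

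Scrublet scores barcodes against artificial sums of other barcodes. At its automatic threshold it marked 0 to 6 barcodes per library, so it had not worked as a caller, and the barcodes with the highest 5% of scores were counted instead. They held 41 of 79 dual barcodes in MRX (51.9%, 40.4 to 63.3%), 119 in CTX (26.9%) and 26 in Combined (21.5%). The d18 libraries had 18 (ctxd18t, 10.1%) and 12 (combod18t, 8.16%, 4.29 to 13.8%). With ties, these top scores were 4.94, 4.41, 4.54, 4.14 and 3.98% of all kept barcodes. The dual share was above that in each library, and most dual barcodes lay outside the top scores in the 4 libraries other than MRX. The share of dual barcodes so scored was highest in MRX, where dual barcodes were rarest, and lowest in combod18t, where the dual share of the C1q gate was highest. The top scores numbered 269, 392, 203, 166 and 160, against 79, 443, 121, 178 and 147 dual barcodes. Their number is set by the kept barcodes, so rare dual barcodes have more room among them, and in CTX and ctxd18t not all dual barcodes could be held. Nothing is therefore read from this order. With the top-scored barcodes left out, dual barcodes were 0.735% of kept barcodes in MRX and 3.81% in CTX.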

How the data were processed

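Droplet 3' RNA counts of sorted CD45-positive cells were used. Per the labels' protocols, Cell Ranger 9.0.1 gave the deposited UMI counts after the authors told samples apart by on-chip barcode sets; GRCm39 and Seurat 5.2.0 are named in the submitters' processing notes, without their role. The values are whole numbers per gene (33696 features) and barcode, not normalised.

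Kept barcodes had at least 200 genes and at most 15% mitochondrial counts. Scrublet was run through scanpy 1.11.5 with an expected rate of 0.06, for description. Raw counts were summed per library and class, with numpy 2.4.6, scipy 1.17.1 and pandas 2.3.3. Log2 ratios use a pseudocount of 0.5 per 10000 restricted UMIs, which understates the change of low genes, over genes with at least 20 counts. Genes outside both parents had at least 20 dual counts or 50 CPM in a parent. Intervals (95%: exact Clopper-Pearson, Poisson, conditional binomial, and order statistics for medians) cover counting error only, and UMIs of 1 barcode are not independent. The steps were checked on simulated counts.

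Of the gene lists, every T lineage gene is named, and of each other list the genes past 2-fold in at least 4 libraries, then those with the largest median size until 3 were named. Other genes named were chosen after their values were seen. The members and lists were chosen with earlier results of these data known. Alternatives were stricter gates, other filters, thinning to 5000 UMIs, other comparators, scales and pseudocounts, and leaving out barcodes of a further lineage or with high Scrublet scores. The weighted mixture, the division by the Cd3 with B ratio and the matched comparison of Cd4 with Cd8b1 were added after seeing the data.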

Additional observations from a re-analysis of the deposited data

Results flagged for a closer look

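A few genes differed at least 2-fold between dual barcodes and their comparator in opposite directions in different libraries; these differences between libraries were not tested, and each library stands alone. Camp was at log2 ratios of 1.05 in CTX, 1.48 in combod18t and -4.16 in ctxd18t against T-only barcodes. Few barcodes held most of these counts: 1 dual barcode held 147 of 149 Camp UMIs in CTX and another 382 of 392 in combod18t. In ctxd18t 1 T-only barcode held 917 of 1504 and the highest 5 held 1457, while the dual barcodes had 5 UMIs in all. Ifng was at 1.55 in Combined and -1.23 in MRX. Ccl1, a T cell chemokine, was at 1.71 in combod18t and -1.06 in ctxd18t, with 152 of 190 dual UMIs of combod18t and 1046 of 1471 T-only UMIs of ctxd18t in 5 barcodes each. Slc12a2, an ion transporter, was at 1.13 in MRX, from 10 UMIs in 4 dual barcodes, and at -1.43 in Combined, from 13.

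Against C1q-only barcodes, Folr2 was at 1.40 in MRX, 1.66 in Combined and -1.28 in ctxd18t. Ccl8 was at 1.88 in MRX and -1.19 in ctxd18t, and Cbr2 at 1.45 and -1.44. Of the same resident-type list, Pf4 was at -0.87 and Mrc1 at -0.53 in MRX. In MRX, 5 of 79 dual barcodes held 51 of 57 Folr2 UMIs and 53 of 70 Cbr2 UMIs, and in Combined 5 of 121 held 33 of 40 Folr2 UMIs. In ctxd18t, 5 of 178 dual barcodes held 1638 of 2572 Ccl8 UMIs, and 5 of 326 C1q-only barcodes held 3517 of 9011.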

How the results depend on the processing

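No paired analysis was possible because each label has 1 library, and no replicate could be left out. Gates, depth, further lineages, top Scrublet scores and, for single genes, the scaling moved values. Values follow in the order MRX, CTX, Combined, ctxd18t, combod18t where all 5 are given. With stricter gates (at least 20 C1q and 5 Cd3 UMIs) the dual share of kept barcodes was 0.882, 3.84 and 1.99% in the first 3 libraries and 3.09% in combod18t, the MRX co-occurrence ratio was 0.254, dual medians were 14156 UMIs in MRX and 26209 in CTX, and the Cd8b1 share in ctxd18t was 70.0%. Thinned to 5000 UMIs, the dual share was 0.794, 2.07, 1.10, 2.26 and 2.12%, and the co-occurrence ratio 0.194, 0.434, 0.478, 0.464 and 0.457. The ratio over that of Cd3 with B was 1.56, 2.02 and 1.49 in the first 3, and the Cd8b1 share 57.1% in MRX, 48.8% in Combined, 82.3% in ctxd18t and 42.6% in combod18t. In Combined the dual Cd8b1 share thereby went below the T-only share (56.1% when thinned); in the other 4 libraries the direction of that difference was kept.

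Without barcodes that passed a further lineage gate, the dual share was 1.86% in MRX and 2.94% in combod18t, the co-occurrence ratio 0.224, 0.541, 0.467, 0.492 and 0.530, dual medians 20036, 18690, 23271 and 21595 UMIs in CTX, Combined, ctxd18t and combod18t, and the Cd8b1 share 63.8% in CTX (T-only 61.9%) and 45.2% in combod18t (T-only 39.1%). The barcodes of these gates also left the kept barcodes, against which the share and the ratio are taken. In MRX 12 of 79 dual barcodes left while the dual share went up from 1.45%, so this rise came from the smaller number kept. Without the top Scrublet scores the dual share was 0.735, 3.81 and 2.22% in MRX, CTX and Combined. The count of 1 gene below both parents was 0 with stricter gates and 0 without barcodes of a further lineage. Counts of T and macrophage genes called in at least 4 libraries were 0 under every alternative run. Of the named genes' log2 ratios, 24 moved and 30 did not when scaled per 100 gate UMIs, 14 moved and 40 did not with a mean over barcodes, and 15 moved and 49 did not without further lineages. Median log2 ratios of named genes kept their sign in 256 of 287 recomputations; among the other 31 the largest main value was 0.37. Beyond the change in the number of kept barcodes, the cause of these shifts was not tested. MRX had the fewest dual barcodes, 79, which limits its precision.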
